A study of Hordeum vulgare with 18 samples.

Results

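Leaf transcripts of the Moroccan barley variety Oussama (M5) were compared with those of Golden Promise (GP), a European barley. The 12 libraries were taken by title, 6 of M5 and 6 of GP, out of 18 in the whole series. The remaining 6 libraries are of a further Moroccan variety, Laanaceur (M4). In the fit they bore only on the choice of tested genes, the normalization and the estimates of the spread and of the replicate terms. The question was which genes differed between leaves of both varieties, whatever the nitrate supply, and whether these differences changed with it.

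The groups were M5 under high nitrate (HN, 5 mM), M5 under low nitrate (LN, 0.5 mM), GP under HN and GP under LN, with 3 libraries each. The labels call both varieties wild type, and by them all plants received 15N, a heavy nitrogen isotope, in the day before sampling. All plants were seedlings 14 days after sowing by the methods, and each library came from leaf tissue of 1 or 2 plants, while the labels give the tissue as aerial. The labels give 1 harvest date for each replicate number, but the GP HN replicate 1 label holds an age in place of dates. They repeat a single planting date, with which only the replicate 1 harvest comes 14 days after planting. Both M5 groups and GP LN hold replicates 1, 2 and 3, whereas GP HN holds 1, 2 and 4, so that 5 pairs of M5 and GP libraries share replicate number and nitrate level. Each variety was represented by a single cultivated line, and differences between M5 and GP therefore apply to these lines. Leaf marker genes were not checked, since the files pair the gene IDs with no names. In bulk leaf RNA, a lower level can stem from fewer cells of a type or from less RNA per cell, and these cannot be told apart.

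As background, M5 is a winter type with 6-row ears and GP a spring type with 2-row ears. Lysine and the branched-chain amino acids (BCAA: leucine, isoleucine and valine) are made in plastids. Lysine comes from aspartate in a pathway that opens with aspartate kinase and passes through dihydrodipicolinate reductase. The enzyme LKR/SDH starts its breakdown. Nitrate enters plant cells through transporters of the NRT1 and NRT2 families, and the leaf turns it into amino acids.

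The GP replicate 1 libraries stood apart from the other GP libraries. Genes counted in a single variety served as a measure. They had a mean above 5 CPM in its own libraries and a mean below 0.05 CPM in those of the other varieties. CPM are the reads of a gene scaled to the gene reads of its library with TMM factors. Both GP replicate 1 libraries and the library being measured were left out of this choice and of the variety's own level. In GP LN replicate 1, the 20 genes of M5 alone had a median of 49.8% of their M5 level, and the 26 genes of GP alone had 36.0% of their GP level. In GP HN replicate 1, the genes of M5 alone were at 0% and those of GP alone at 96.0%, while the 17 genes of M4 alone were at 14.7% of their M4 level. In the 4 other GP libraries, the genes of M5 alone and of M4 alone were at 0%. In the 6 M5 libraries, the genes of GP alone and of M4 alone were at 0%, and those of M5 alone at 91.2 to 101.9%. Excluding the GP replicate 1 libraries, the correlation of log2 CPM across genes ran from 0.883 to 0.905 between M5 and GP, and between M5 libraries and GP replicate 1 libraries it reached 0.961. The comparisons of genes below were therefore computed with all libraries and again without these 2. Values of single genes are those with all libraries unless stated otherwise.

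**Figure D1:**
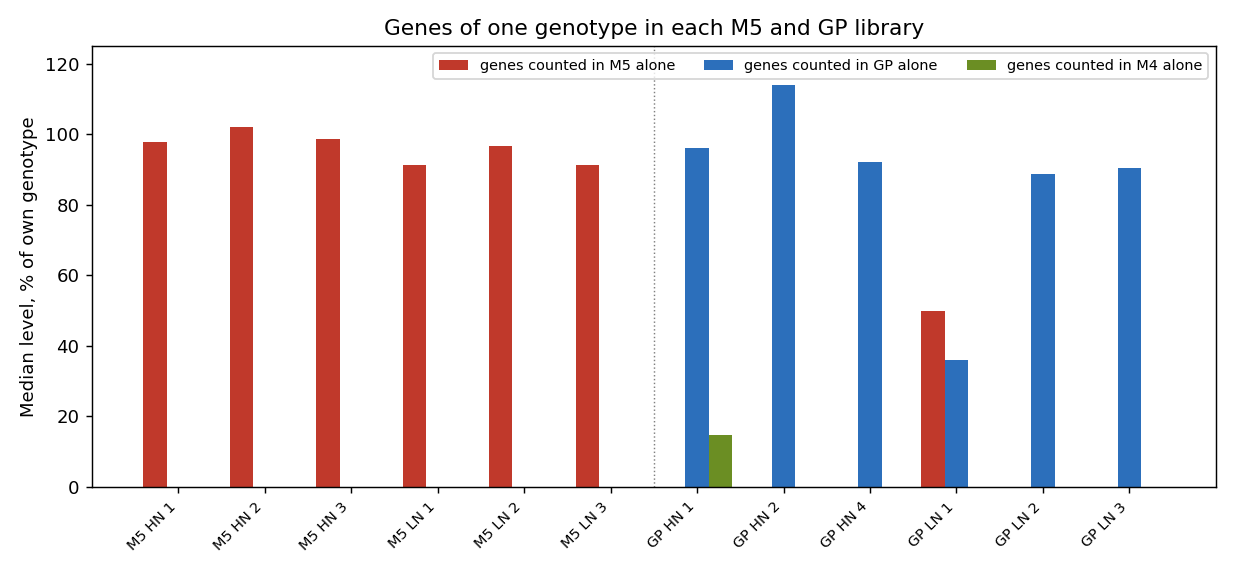
Level of genes counted in a single variety, in each of the 6 M5 libraries (left) and the 6 GP libraries (right). Bars give the median level in percent of the mean of the variety's own libraries, for genes of M5 alone (red), GP alone (blue) and M4 alone (green). That mean and the choice of genes leave out the GP replicate 1 libraries and the library shown. GP LN replicate 1 is the only GP library with a red bar, at 49.8%, and its blue bar is at 36.0%.

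Library depth was similar in both varieties. Reads on the sense strand of genes numbered 11823626 to 20477748 per M5 library and 12138425 to 21993841 per GP library. They made up 76.7% ± 0.349 of all reads in M5 and 76.9% ± 0.429 in GP (SD, n = 6 each), and the difference of -0.225 percentage points was within the spread between libraries (exact two-sided permutation within nitrate level, p = 0.325). Reads mapped to several places took 14.9 to 16.7% in M5 and 15.3 to 16.0% in GP, and they were counted for no gene. Before thinning, a mean of 22883.5 genes had reads in M5 and 23329.5 in GP (exact two-sided permutation p = 0.04). After thinning each library to the gene reads of the smallest, 22208 to 22857 genes had reads in M5 and 22557 to 22856 in GP (exact two-sided permutation p = 0.1). Both comparisons include the GP replicate 1 libraries. Before thinning these had the most genes of the GP libraries, 23642 under LN and 23555 under HN.

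Across both nitrate levels, 2376 of 19021 tested genes (12.5%) differed between M5 and GP at an adjusted p under 0.05 in edgeR's quasi-likelihood test. Of these, 1029 (5.41% of the tested genes) were higher in M5 and 1347 (7.08%) were lower. The median log2 fold change (log2 FC, M5 over GP) over all tested genes was -0.0028, and that of the called genes had a size of 1.21. Without the GP replicate 1 libraries 2334 genes (12.3%) were called, 1108 higher and 1226 lower in M5. Of the 2376 genes, 1992 were also called without these libraries, 342 others were called then, and 0 changed direction. In 1328 of the 2376, all 6 M5 libraries lay above or all below the 6 GP libraries, against 1444 such genes (7.59%) among all genes tested.

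Called genes ranged from small shifts in level to genes with no read in a variety. The size of the log2 FC was below 1 in 1018 called genes (42.8%), between 1 and 2 in 590, between 2 and 5 in 512 and above 5 in 256 (10.8%). Among the genes above 5, 54 were higher and 202 lower in M5, whereas without the GP replicate 1 libraries 206 were higher and 204 lower. Genes with no read in all 6 M5 libraries made up 104 of the calls, and 0 called genes had no read in all 6 GP libraries. In the 4 GP libraries other than replicate 1, 91 called genes had no read. Fitted values of such genes depend on the prior count added to them. Genes of low abundance were called more often. The shares were 23.4% under 1 CPM, 16.3% between 1 and 10 CPM, 9.37% between 10 and 100 CPM and 6.33% from 100 CPM. Only genes above 1 CPM in at least 3 libraries were tested, so those with a mean under 1 CPM had to vary between libraries. This filter can favour calls in the lowest class, and the share there is no measure of an effect of abundance.

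Under HN, 1432 genes (7.53%) were called, of which 619 were higher and 813 lower in M5. Under LN, 805 genes (4.23%) were called, with 229 higher and 576 lower. Without the GP replicate 1 libraries, the counts were 1315 under HN (6.94%; 646 higher, 669 lower) and 1285 under LN (6.78%; 581 higher, 704 lower). The share of calls that were higher in M5 under LN was thus 28.4% with all libraries and 45.2% without those 2. Both counts rested on few libraries per group. The HN count was 923 without GP HN replicate 1, 653 without GP HN replicate 2, 915 without GP HN replicate 4 and 618 without M5 HN replicate 2. M5 HN holds a replicate 3, harvested in March, where GP HN holds a replicate 4. The HN count was 1019 without M5 HN replicate 3. Without M4 HN replicate 4, whose nitrate label goes against its title, it was 1176. The LN count was 1368 without GP LN replicate 1, 382 without GP LN replicate 2, 443 without GP LN replicate 3 and 488 without M5 LN replicate 3. Fits restricted to the compared libraries also moved them, as detailed among the processing effects.

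The differences under HN and LN ran in the same direction in nearly all called genes. These 2 comparisons contrast different M5 and GP libraries, but they come from 1 fit with common replicate terms and estimates of the spread. They are therefore not fully independent. The HN count was 1637 without GP LN replicate 1, for instance. Of the 1432 genes called under HN, 1400 (97.8%) had the same sign under LN, against 63.4% of all tested genes. Of the 805 genes called under LN, 798 (99.1%) had the same sign under HN. The 648 genes called in both, all in the same direction, made up 45.3% of the HN calls and 80.5% of the LN calls, and without the GP replicate 1 libraries 976 genes made up 74.2% and 76.0%. The genes called under HN had a median log2 FC of 2.04 in size under HN, and of 1.41 in the same direction under LN. Without the GP replicate 1 libraries these medians were 2.53 under HN and 2.18 under LN. The genes were chosen by their HN values, which favours a larger size under HN.

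A test of the difference itself, the log2 FC under LN minus that under HN, called 0 genes (0%) with quasi-likelihood in edgeR. Before adjustment, 769 of 19021 genes had a p under 0.05, and the lowest adjusted p was 0.984. That is a share below the 0.05 of genes that this threshold passes where no gene differs. The edgeR likelihood ratio test and limma-voom called 0 genes as well, and DESeq2 called 7. Without the GP replicate 1 libraries, the quasi-likelihood test again called 0 genes (0%). Before adjustment 562 of 18952 genes were under 0.05 in that fit, again a share below 0.05. The likelihood ratio test called 2 then.

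**Figure D2:**
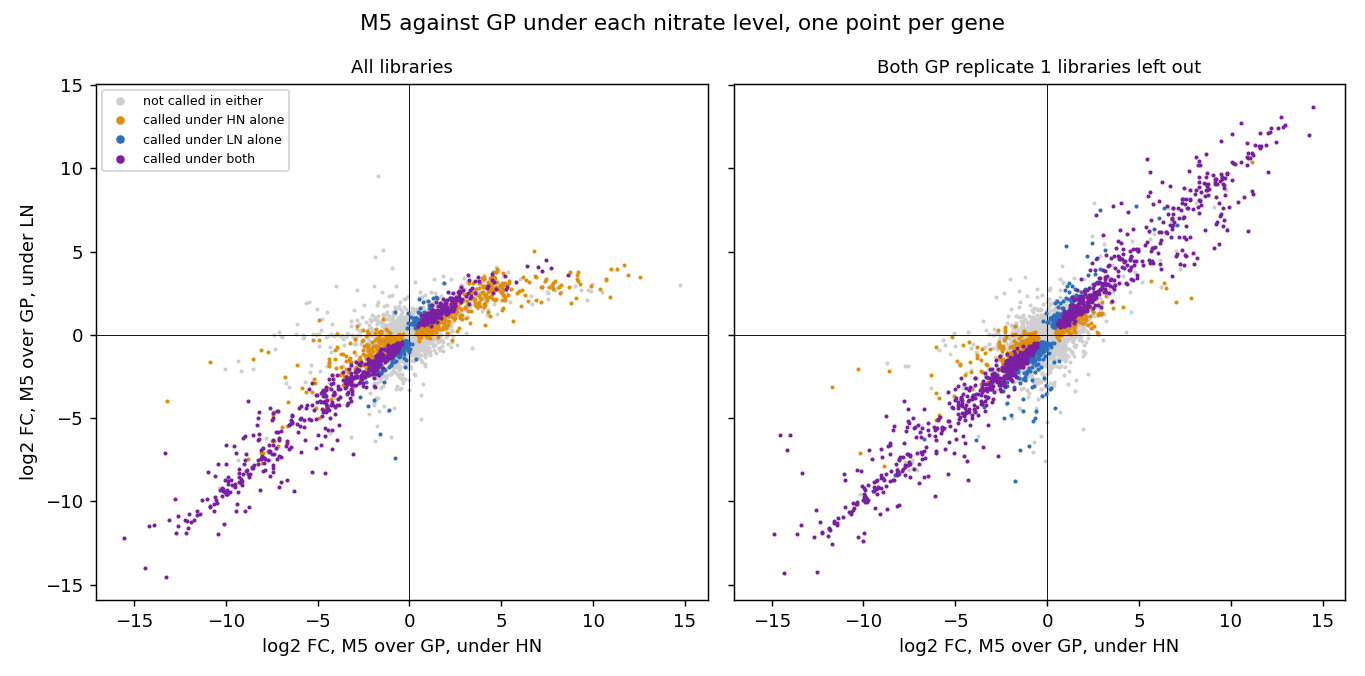
Log2 FC of M5 over GP under HN (x axis) and LN (y axis), 1 point per tested gene, with all libraries (left) and without the GP replicate 1 libraries (right). Colours mark genes called under HN alone, LN alone, both or neither. With all libraries the genes higher in M5 flatten along the LN axis, and without these 2 libraries they follow the diagonal, with 976 genes called under both.

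Some genes were counted in a single variety of the pair. A gene of this kind had a mean of at least 1 CPM, a read in every library of its variety and at most 3 reads in total over the other. With all libraries, 140 genes were counted in GP and not in M5, and 0 in M5 and not in GP. Without the GP replicate 1 libraries, 142 genes were counted in M5 alone and 150 in GP alone. The 142 M5 genes had 1.03 to 115 CPM in M5 (median 4.15), and 82 of them had no read in the 4 GP libraries. In GP LN replicate 1 they were at a median of 50.8% of their M5 level, and in GP HN replicate 1 at 12.5%. The 150 GP genes had 1.01 to 317 CPM in GP (median 3.44), and 98 had no read in M5. In the M4 libraries, 87 of the M5 genes and 59 of the GP genes reached 1 CPM, and 36 and 69 had at most 3 reads. A count of 0 allows up to 3 reads, or 0.0305 CPM over the 6 M5 libraries and 0.0412 CPM over the 4 GP libraries. These limits cover counting error only. Absence of the gene, silence in the leaf and a failure to map to the Morex reference cannot be told apart in these counts.

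The largest differences belonged to genes that the files pair with no name. HORVU7Hr1G059130 had no read in any M5 library, and 66.8 CPM at the lowest, 145.4 at the median and 155.2 at the highest in GP. With 0 reads in M5 and 15039 in GP, it was at least 4320-fold lower in M5 (floor of 3 reads over the 6 libraries). M4 held 90.8 to 112.5 CPM of it. HORVU4Hr1G090780 had 1 read in all M5 libraries, against 20291 reads and 77.9 to 250.6 CPM (median 189.9) in GP. That was a 17500-fold lower level in M5, with a 95% counting interval of 3140 to 690000, and M4 had 0 to 1.10 CPM. The edgeR adjusted p was 1.77e-07 for HORVU7Hr1G059130 and 6.69e-06 for HORVU4Hr1G090780. For both genes the lowest GP value was that of replicate 1 under LN.

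On chromosome 4H, HORVU4Hr1G090780 was 1 of 3 consecutive genes lower in M5. The gene listed just before it had 0 reads in M5 and 269 in GP, and the one before that 2 reads in M5 and 30979 in GP. M4 had 23 reads of HORVU4Hr1G090780, 0 of the gene just before it and 16 of the one before that. Of the 10 genes listed on either side of the stretch, 8 were tested and 1 was called. This stretch was singled out after its values were seen.

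Among the genes higher in M5, HORVU1Hr1G048670 had 54.7 to 64.9 CPM in M5 (median 60.9). In GP it had 20.2 CPM in LN replicate 1, 0.0513 CPM in HN replicate 1 and no read in the 4 other libraries. HORVU2Hr1G114870 had 25.2 to 34.3 CPM in M5 (median 30.4), against 18.6 CPM in GP LN replicate 1 and no read in the 5 other GP libraries. Every M5 library exceeded every GP library for both, although a single GP library held nearly all GP reads. Without GP replicate 1, HORVU1Hr1G048670 was at least 1470-fold and HORVU2Hr1G114870 at least 735-fold higher in M5. The edgeR adjusted p was 0.00534 and 0.0168 with all libraries, and 2.1e-06 and 1.18e-05 without the 2 libraries, in that gene order. The call of HORVU2Hr1G114870 ended without GP HN replicate 1 (edgeR adjusted p = 0.0736) and without GP HN replicate 2 (edgeR adjusted p = 0.0632). Under HN alone both genes were called, but HORVU1Hr1G048670 lost this call in 3 and HORVU2Hr1G114870 in 11 of 31 alternative fits. Under LN alone neither was called by the quasi-likelihood test with all libraries. Both were called under LN without GP replicate 1 (edgeR adjusted p of 1.03e-05 and 4.65e-05, in that gene order). M4 had at most 0.0477 CPM of each gene.

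Called genes were denser toward the ends of the chromosomes. The number in an ID gives the chromosome and rises along it, so the place of a gene was taken from the order of IDs. In the outer 10% of the tested genes at either end of each chromosome, 757 of 3678 genes (20.6%) were called, against 635 of 7359 (8.63%) in the middle 40%. Each of the 7 chromosomes had the larger share at its ends, at 14.5 to 24.7%, against 6.16 to 10.4% in its middle. Genes at the ends also had a lower median level, with 11.6 CPM against 16.4 CPM. Among genes between 1 and 10 CPM, the shares were 25% at the ends and 12.3% in the middle, and between 10 and 100 CPM they were 16.9% and 6.33%. The shares without the GP replicate 1 libraries were 20.7% at the ends and 8.79% in the middle. These shares describe the gene order of the reference and were not tested.

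The share of called genes ranged from 9.23% on chromosome 4H to 14.0% on 6H. In windows of 100 tested genes, it ran from 1 to 38%, with a median of 11%, over 184 windows. The highest was the second window of 2H, with 38 called genes (18 higher, 20 lower in M5), and the lowest lay on 1H. In 20.2% of cases the gene next to a called gene was also called, against 12.5% of all tested genes. Of these neighbours, 60.8% went in the same direction, from 50% on 6H to 71.2% on 1H. Among all called genes, 43.3% were higher in M5, so many unrelated pairs also share a direction. The denser calls at the chromosome ends enter the 20.2%, and neither share was tested.

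**Figure D3:**
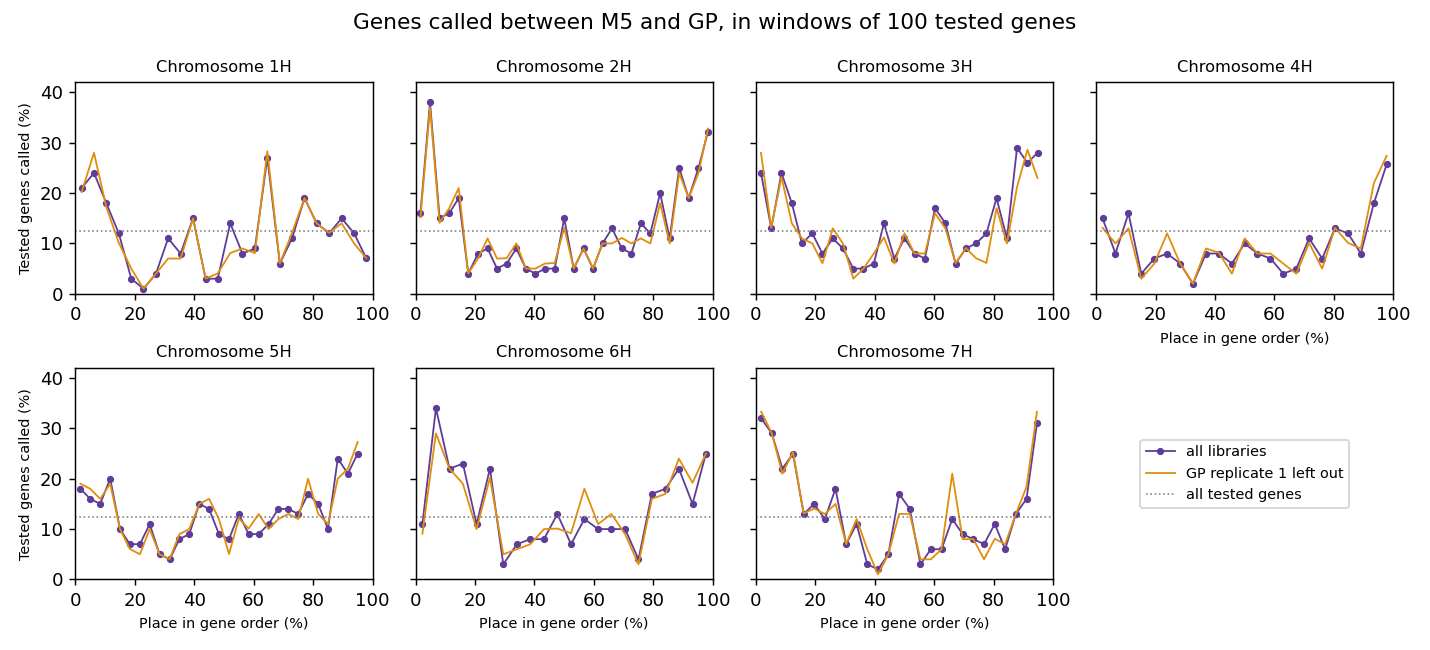
Share of tested genes called between M5 and GP in windows of 100 tested genes (y axis, percent), against the place of the window in the gene order of each chromosome (x axis, percent of windows). Purple shows all libraries, orange the fit without the GP replicate 1 libraries, and the dotted line the 12.5% of all tested genes. The shares rise toward the ends, to 38% near the start of 2H.

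The genes of lysine and BCAA metabolism came from the study, which named 8 and 10 of them after comparing M4 with the mean of GP and M5. That choice used the libraries compared here, so their counts are no independent evidence. Of the 8 lysine genes, 4 were called between M5 and GP (50%; 1 higher, 3 lower in M5), against 12.5% of all tested genes. Their median log2 FC was -1.16, also with genes at 0 reads set at their bound, against -0.0028 over all tested genes. Of the 10 BCAA genes, 7 were called (70%; 6 higher, 1 lower), with a median log2 FC of 0.668. Without GP replicate 1, 4 lysine and 6 BCAA genes were called.

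The aspartate kinase gene HORVU7Hr1G085930, for the entry step of the pathway, had no read in any M5 library. In GP it had 4.57, 4.18 and 3.97 CPM under HN and 1.15, 2.62 and 2.97 CPM under LN. It was at least 105-fold lower in M5 (0 against 365 reads, edgeR adjusted p = 1.65e-05), and the varieties did not overlap. M4 had 2.87 to 4.81 CPM. Other genes of the enzyme were not analysed here.

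Of the 3 dihydrodipicolinate reductase genes, which serve the lysine branch, 2 were nearly uncounted in M5 and 1 was higher. HORVU1Hr1G078290 had no read in M5 and 4.62, 2.98 and 5.18 CPM in GP under HN, and 1.97, 3.98 and 4.65 CPM in GP under LN. It was at least 124-fold lower in M5 (0 against 431 reads, edgeR adjusted p = 1.72e-05). HORVU7Hr1G117980 had 3 reads in M5 against 99 in GP, a 28.4-fold lower level with a counting interval of 9.45 to 140 (edgeR adjusted p = 0.00018). Under LN alone, its call ended without M5 LN replicate 3 (edgeR adjusted p = 0.0583). Both genes were thus low in M5 at each nitrate level.

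The third reductase gene, HORVU4Hr1G086020, was higher in M5. It had 56.3, 57.8 and 43.8 CPM in M5 under HN and 40.5, 47.7 and 47.0 CPM in M5 under LN. In GP it had 32.0, 31.0 and 29.8 CPM under HN and 43.4, 31.4 and 29.7 CPM under LN. Only GP LN replicate 1 reached into the M5 range. The log2 FC was 0.61 (SE 0.101, edgeR adjusted p = 0.00133), and 0.72 without GP replicate 1. Summed over the 3 genes, M5 libraries had 40.5 to 57.8 CPM and GP libraries 35.0 to 45.7 CPM, 1.3 times as much on average in M5. The highest gene made up 99.9% of this sum in M5 and 86.9% in GP. Sums of CPM over genes are not corrected for transcript length.

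HORVU6Hr1G083050, for the bifunctional LKR/SDH, did not pass the test (log2 FC -1.39, SE 0.716, edgeR adjusted p = 0.281). It had 4.33 to 13.0 CPM in M5 and 5.37 to 17.0 CPM in 5 of the GP libraries, but 147.8 CPM in GP LN replicate 3. The 3 LHT1 genes, amino acid importers of the plasma membrane as known from Arabidopsis, did not pass either. HORVU7Hr1G074660 had 18.9 to 70.2 CPM in M5 and 37.5 to 77.7 CPM in GP, and HORVU7Hr1G074640 4.29 to 29.2 CPM in M5 and 14.3 to 62.0 CPM in GP. Their ranges overlapped widely. HORVU2Hr1G123160 had 0.242 to 0.509 CPM in M5 and 0.288 to 1.03 CPM in GP, with an edgeR adjusted p of 0.822.

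A branched-chain amino acid transaminase gene had the largest log2 FC among the BCAA genes higher in M5. This enzyme acts last in the synthesis of all BCAA and first in their breakdown. HORVU3Hr1G032400 had 137.8, 120.1 and 142.8 CPM in M5 under HN and 84.5, 113.1 and 105.3 CPM in M5 under LN. In GP under HN it had 27.3 CPM in replicate 1, and 5.68 and 3.51 CPM in replicates 2 and 4. In GP under LN it had 80.9 CPM in replicate 1, and 4.43 and 5.45 CPM in replicates 2 and 3. The 2 high GP values were those of replicate 1, yet all M5 libraries were above all GP libraries. The log2 FC was 3.09 (SE 0.651, edgeR adjusted p = 0.00679), and 4.63 without GP replicate 1 (SE 0.189, edgeR adjusted p = 8.04e-08). M4 had 84.8 to 128.4 CPM. Under HN alone, the call ended without GP HN replicate 2, GP HN replicate 4 or M5 HN replicate 2 (edgeR adjusted p of 0.124, 0.0804 and 0.0888), and under LN alone it was made only without GP LN replicate 1. The other transaminase gene, HORVU2Hr1G096380, had 1.29 to 2.67 CPM in M5 and 1.27 to 2.94 CPM in GP and did not pass (edgeR adjusted p = 0.216).

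Threonine aldolase splits threonine into glycine and acetaldehyde. Of its 3 genes, 2 were higher in M5. HORVU1Hr1G046630 had 6.72 to 10.3 CPM in M5 (median 7.96) and 2.13 to 4.46 CPM in GP (median 3.24), with a log2 FC of 1.29 (SE 0.18, edgeR adjusted p = 0.000389). HORVU2Hr1G097910 had 21.4 to 27.7 CPM in M5 (median 23.7) and 14.3 to 21.3 CPM in GP (median 16.7), with a log2 FC of 0.51 (SE 0.105, edgeR adjusted p = 0.00606). In neither did M5 and GP libraries overlap, and M5 was higher in 5 of 5 pairs matched by replicate number and nitrate level. HORVU4Hr1G085690 was also higher in 5 of 5 pairs, with a log2 FC of 0.30 that did not pass (SE 0.122, edgeR adjusted p = 0.151). It was called without M4 LN replicate 3 (edgeR adjusted p = 0.0468) and without M5 LN replicate 3 (edgeR adjusted p = 0.0497).

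Isopropylmalate dehydrogenase catalyses an oxidation in leucine synthesis. Of its 5 genes, 3 were higher and 1 was lower in M5. HORVU7Hr1G066450 had 20.0 to 28.2 CPM in M5 (median 22.7) and 9.77 to 14.3 CPM in GP (median 11.5), with a log2 FC of 1.03 (SE 0.152, edgeR adjusted p = 0.000603). HORVU2Hr1G124400 had 104.3 to 144.2 CPM in M5 (median 135.1) and 56.9 to 116.2 CPM in GP (median 67.7), with a log2 FC of 0.83 (SE 0.143, edgeR adjusted p = 0.00174). Of these 2 genes, only HORVU2Hr1G124400 overlapped, through the 116.2 CPM of GP LN replicate 1. HORVU3Hr1G069300 had 17.0 to 24.6 CPM in M5 and 9.24 to 14.1 CPM in GP, with a log2 FC of 0.90 (SE 0.208, edgeR adjusted p = 0.0116). Its call ended without GP HN replicate 1 (edgeR adjusted p = 0.0697) and without both GP replicate 1 libraries (edgeR adjusted p = 0.0847). M4 had at most 0.279 CPM of it.

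The dehydrogenase gene lower in M5 was HORVU3Hr1G000570. It had 2 reads over the 6 M5 libraries, 0.0513 and 0.0605 CPM in LN replicates 1 and 3, and 649 reads in GP. GP libraries had 6.52, 6.16 and 7.19 CPM under HN and 2.34, 5.79 and 7.21 CPM under LN. The level was 279-fold lower in M5, with a counting interval of 77.1 to 2310 (edgeR adjusted p = 1.96e-06). The most abundant gene of the enzyme, HORVU3Hr1G059060, had 569.5 to 697.4 CPM in M5 and 643.6 to 878.9 CPM in GP and did not pass (log2 FC -0.18, SE 0.0999, edgeR adjusted p = 0.318). Summed over the 5 genes, M5 libraries had 746.5 to 888.4 CPM and GP libraries 726.4 to 991.5 CPM, a ratio of means of 0.959. The summed level therefore overlapped between M5 and GP although 4 of its 5 genes were called.

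**Figure D4:**
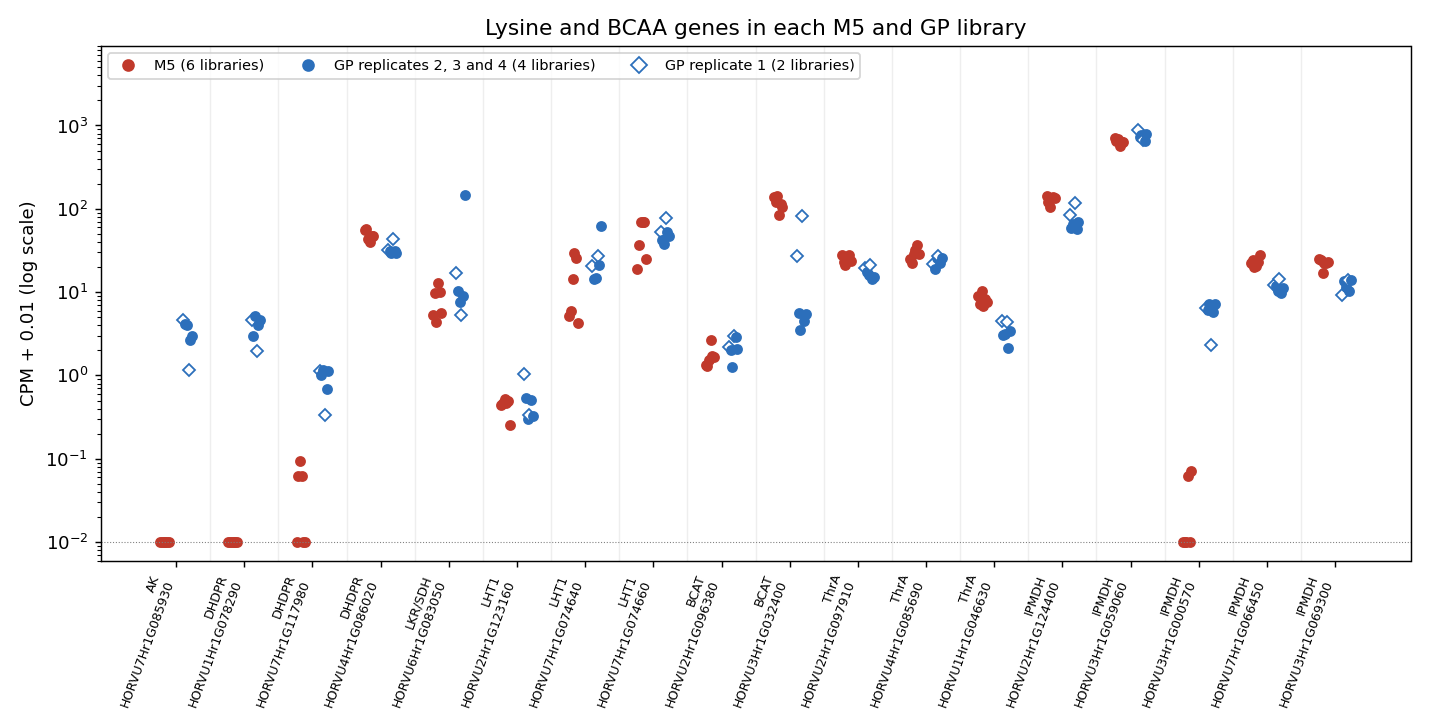
CPM plus 0.01 on a log axis for the 18 lysine and BCAA genes in each M5 library (red, left of each pair) and GP library (blue, right), with GP replicate 1 as open diamonds. AK is aspartate kinase, DHDPR dihydrodipicolinate reductase, LHT1 lysine histidine transporter 1, BCAT branched-chain amino acid transaminase, ThrA threonine aldolase and IPMDH isopropylmalate dehydrogenase. Red points on the dotted line are libraries with 0 reads, as in all 6 M5 libraries of HORVU7Hr1G085930 and HORVU1Hr1G078290.

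At a single nitrate level, 5 of the 10 BCAA genes were called under HN and 5 under LN, against 7.53% and 4.23% of all tested genes. The log2 FC of HORVU1Hr1G046630 was 1.34 under HN and 1.24 under LN, and that of HORVU2Hr1G124400 was 0.86 under HN and 0.80 under LN. Most of these calls ended with 1 library fewer. HORVU1Hr1G046630 was lost under LN without GP LN replicate 2 (edgeR adjusted p = 0.0907) or M5 LN replicate 2 (edgeR adjusted p = 0.0582). HORVU7Hr1G066450 was lost under HN without GP HN replicate 2, GP HN replicate 4 or M5 HN replicate 2 (edgeR adjusted p of 0.0584, 0.0523 and 0.09). It was lost under LN without GP LN replicate 2, GP LN replicate 3 or M5 LN replicate 3 (edgeR adjusted p of 0.088, 0.0542 and 0.0722). HORVU2Hr1G124400 was lost under HN without GP HN replicate 2, GP HN replicate 4, M5 HN replicate 1 or M5 HN replicate 2 (edgeR adjusted p of 0.0743 to 0.129). Under LN it was lost in 11 of the 18 fits that left out 1 library (edgeR adjusted p of 0.0513 to 0.22), and HORVU2Hr1G097910 in 14 of them (edgeR adjusted p of 0.0541 to 0.264). Across both levels, the calls of these 4 genes were kept in all 18 such fits and without both GP replicate 1 libraries.

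The study also listed 37 genes by their response to nitrate in these samples, 19 higher and 18 lower under LN. A gene entered these lists by its change with nitrate in at least 2 of GP, M4 and M5, in the libraries used here. How M5 differs from GP under LN and HN is thus partly fixed by that choice, and the counts and medians below are descriptions and no evidence about nitrate. Across both levels, 4 of the 37 were called (10.8%; 0 higher, 4 lower in M5), a share near the 12.5% of all tested genes. Under HN 1 was called (2.7%, against 7.53%), and under LN 3 were called (8.11%, against 4.23%). The median log2 FC of the 37 genes was 0.0231 under HN and -0.51 under LN, while that of all tested genes was -0.0104 and 0.000152. Without GP replicate 1, 2 of the 37 were called across both levels, and the median was -0.04 under HN and -0.413 under LN.

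In the list higher under LN, HORVU2Hr1G007350 was the 1 gene of 19 called between M5 and GP. The study's tables give it no annotation. It had 40.6, 41.1 and 39.6 CPM in M5 under HN and 68.6, 58.4 and 62.8 CPM in M5 under LN. In GP it had 132.4, 139.9 and 158.1 CPM under HN and 120.3, 165.9 and 168.1 CPM under LN. The M5 and GP libraries did not overlap, and M4 was lower still, at 16.8 to 32.0 CPM. The log2 FC was -1.54 (SE 0.0959, edgeR adjusted p = 1.13e-06), with -1.82 under HN and -1.25 under LN. Its calls were kept without the GP replicate 1 libraries.

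The nitrate transporter gene NRT2.10, HORVU7Hr1G098550, did not pass the test. It had 3.42, 2.62 and 8.39 CPM in M5 under HN and 33.8, 47.6 and 5.2 CPM in M5 under LN. In GP it had 1.90, 1.97 and 3.74 CPM under HN and 18.4, 20.2 and 5.69 CPM under LN. Replicate 3, harvested in March, was the lowest under LN in both varieties. M5 was higher in 4 of 5 matched pairs, with a log2 FC of 0.91 (SE 0.575, edgeR adjusted p = 0.404).

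The other 17 genes of that list did not pass either, and their log2 FC ran from -2.86 to 0.44. Ferritin 4 (HORVU5Hr1G047730), an iron store, had 28.7 to 154.7 CPM in M5 and 30.0 to 149.9 CPM in GP. Jasmonate-zim-domain protein 1 (HORVU5Hr1G062290), a repressor of jasmonate signalling in Arabidopsis, had 5.18 to 54.9 CPM in M5 and 8.32 to 75.4 CPM in GP. The RAD-like genes HORVU1Hr1G089490, HORVU1Hr1G089500 and HORVU1Hr1G089510 had log2 FC between -0.83 and -2.11 under HN and between 0.19 and 0.84 under LN, and none passed at either level. The cytochrome b561 gene HORVU6Hr1G060720 had 44.9 to 97.1 CPM in M5 and 25.1 to 93.6 CPM in GP (log2 FC 0.42, edgeR adjusted p = 0.0941). Over both levels it was called without GP HN replicate 4 (edgeR adjusted p = 0.0285) and by DESeq2 (DESeq2 adjusted p = 0.046). It was also called in the fit of the GP and M5 libraries alone with the replicate block (edgeR adjusted p = 0.047). Under HN alone it was called in 4 of 31 alternative fits. HORVU1Hr1G057880, annotated as a release factor, had the lowest value, -2.86, which rested on 206.6 CPM in GP LN replicate 3 against at most 1.15 CPM in the other 11 libraries of M5 and GP.

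In the list lower under LN, HORVU3Hr1G082580, of the major facilitator superfamily of transporters, was lower in M5 under LN. It had 8.31, 9.55 and 11 CPM in M5 under LN and 28.5, 28.2 and 26.3 CPM in GP under LN. Under HN it had 101.5, 76.3 and 84.2 CPM in M5 and 84.3, 151.8 and 74.5 CPM in GP. The groups were thus apart under LN and overlapped under HN. The log2 FC was -1.53 under LN (SE 0.26, edgeR adjusted p = 0.00445) and -0.18 under HN (SE 0.256, edgeR adjusted p = 0.816). Without the GP replicate 1 libraries the gene was again called under LN and not under HN. With all libraries, the log2 FC under LN minus that under HN, -1.35, had an unadjusted p of 0.00261 in edgeR. It did not pass after adjustment (edgeR adjusted p = 0.984).

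A gene of the same superfamily, HORVU3Hr1G082460, had 4.72 to 35.0 CPM in M5 and 12.3 to 60.7 CPM in GP and did not pass (log2 FC -0.60, edgeR adjusted p = 0.175). Among the basic helix-loop-helix (bHLH) transcription factor genes, HORVU3Hr1G108680 was called across both levels. It had 149.7, 95.1 and 141.0 CPM in M5 under HN and 2.36, 2.78 and 5.56 CPM in M5 under LN. In GP it had 271.8, 312.4 and 105.2 CPM under HN and 12.1, 19.0 and 13.6 CPM under LN. M5 was lower in 5 of 5 matched pairs, and the log2 FC was -1.45 (SE 0.402, edgeR adjusted p = 0.0307). Its call ended without both GP replicate 1 libraries (edgeR adjusted p = 0.0693) and without any of 8 single libraries (edgeR adjusted p of 0.0616 to 0.111), namely GP HN replicates 1 and 2, GP LN replicates 2 and 3, M5 HN replicates 1 and 2 and M5 LN replicates 1 and 2.

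The neighbouring bHLH gene HORVU3Hr1G108670 had 0 to 84.6 CPM in M5 and 1.20 to 224.4 CPM in GP and did not pass (log2 FC -1.50, SE 0.632, edgeR adjusted p = 0.168). It was called without M5 LN replicate 3 (edgeR adjusted p = 0.0101). A further bHLH gene, HORVU2Hr1G028530, was at 20.6, 21.2 and 23.0 CPM in M5 under LN, below the 39.5, 31.2 and 32.6 CPM in GP under LN. Its edgeR adjusted p of 0.0487 under LN lay at the threshold, and the call ended without both GP replicate 1 libraries (edgeR adjusted p = 0.145). It also ended in 15 of the 18 fits that left out a single library (edgeR adjusted p of 0.0515 to 0.159), and held without M4 LN replicate 3, M5 HN replicate 2 or M5 HN replicate 3. Across both levels it did not pass (edgeR adjusted p = 0.0823). It was called then without M4 LN replicate 3 (edgeR adjusted p = 0.0213), without M5 HN replicate 3 (edgeR adjusted p = 0.0419), with no replicate block (edgeR adjusted p = 0.0374) and in the fit of the GP and M5 libraries alone with the block (edgeR adjusted p = 0.0335). The F-box gene HORVU3Hr1G078390 had at most 4.33 CPM in M5 and 15.9 CPM in GP, with a log2 FC of -3.06 (SE 0.852, edgeR adjusted p = 0.032). Its call ended without both GP replicate 1 libraries (edgeR adjusted p = 0.124) and without any of 7 single libraries (edgeR adjusted p of 0.0628 to 0.145), namely GP HN replicate 2, GP LN replicate 1, M5 HN replicates 1 and 2 and the 3 M5 LN libraries.

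The other genes of this list did not pass. HORVU4Hr1G009380, with no annotation, had 2.20 to 44.0 CPM in M5 and 7.37 to 64.8 CPM in GP (edgeR adjusted p = 0.109). It was called without GP HN replicate 4 (edgeR adjusted p = 0.0192) or M5 HN replicate 1 (edgeR adjusted p = 0.0431). DESeq2 (DESeq2 adjusted p = 0.039) and the edgeR likelihood ratio test (adjusted p = 0.0468) also called it. So did the fit of the GP and M5 libraries alone with the replicate block (edgeR adjusted p = 0.0453). Phosphoenolpyruvate carboxylase 3 (HORVU7Hr1G080510), which supplies carbon skeletons for amino acids, had 182.8 to 711.5 CPM in M5 and 261.0 to 634.2 CPM in GP. Chloride channel B (HORVU6Hr1G017920) had 11.3 to 56.9 CPM in M5 and 20.3 to 45.7 CPM in GP. Ureide permease 1 (HORVU7Hr1G108790) had 1.44 to 20.4 CPM in M5 and 2.58 to 16.2 CPM in GP. In each of these genes the ranges of both varieties overlapped.

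**Figure D5:**
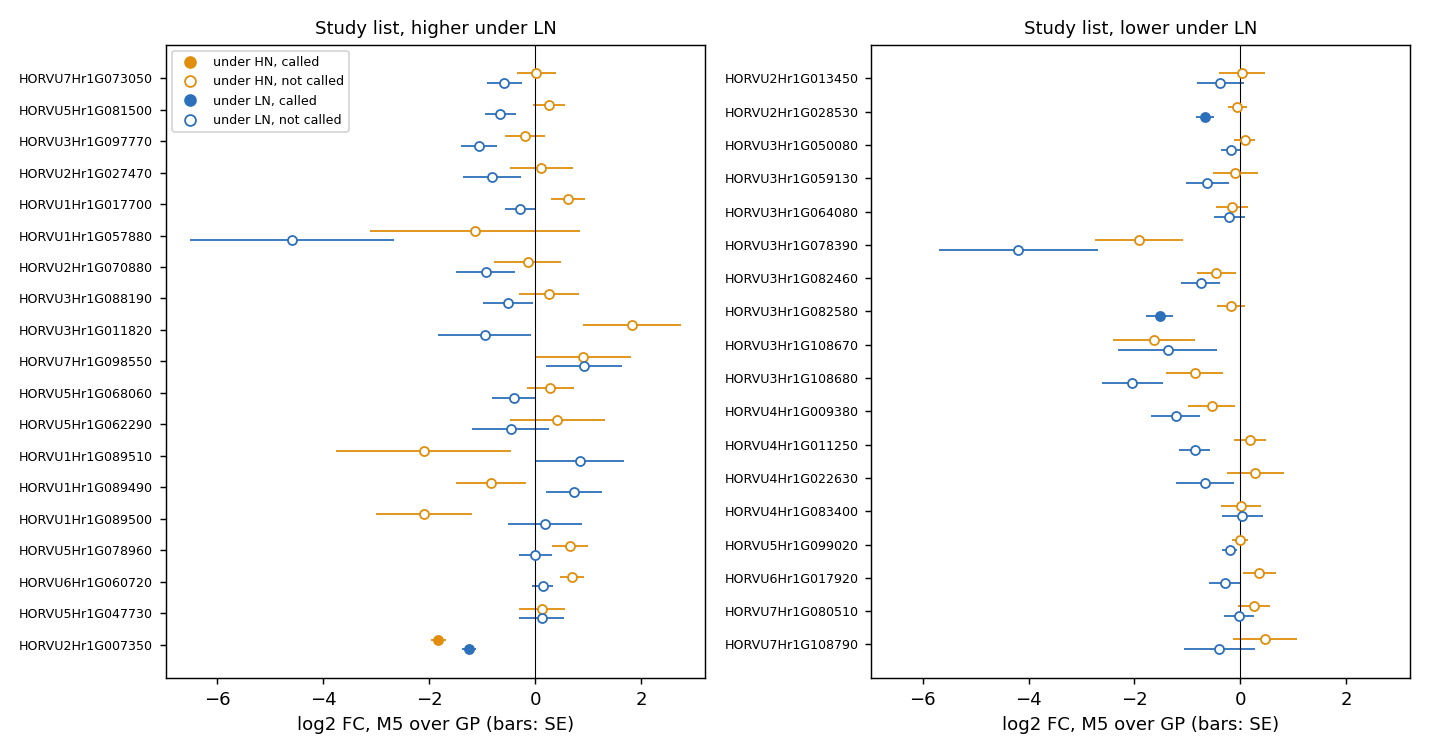
Log2 FC of M5 over GP (x axis) for the 37 genes the study listed by their response to nitrate, 19 higher under LN (left) and 18 lower under LN (right), under HN (orange) and LN (blue). Bars give the SE, and filled points passed the adjusted p threshold. Filled points are those of HORVU2Hr1G007350 at both levels, and of HORVU2Hr1G028530 and HORVU3Hr1G082580 under LN, all on the negative side.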

How the data were processed

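Stranded poly(A) RNA-seq (single reads of 75 bases) was analysed in 6 M5 and 6 GP libraries, with 6 M4 libraries in the same fit. The deposited values are raw read counts per gene. To make them, the authors used Trimmomatic 0.36 for trimming, sortMeRNA 2.1 against rRNA, and STAR 2.7.3a for mapping to the Morex reference and counting. The reverse-strand count, the sense strand for this kit, was used. Reads naming no gene were left out of library sizes: 1.66 to 2.53% were unmapped, 14.9 to 16.7% mapped to several places, 5.05 to 5.92% hit no gene and 0.00472 to 0.0104% were ambiguous. Near-identical gene copies are thus uncertain, and varieties that differ from Morex may map unequally.

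Groups came from the titles. The M4 HN replicate 4 library carries a low nitrate treatment label against its title, and was kept as titled. Genes with CPM above 1 in at least 3 libraries were tested (19021 of 43050) with edgeR 4.0.16 in R 4.3.3, by the quasi-likelihood test with TMM normalization, 6 groups and the replicate number as a block, as in the study's model, and Benjamini-Hochberg adjustment at 0.05. The SE was the log2 FC divided by the square root of F. limma 3.58.1 and DESeq2 1.42.0 served as alternatives, and the fit was tested on simulated data. Replicate numbers pair the libraries because the labels give 1 harvest date per number. Deviations from group means correlated with a median r of 0.0223 over 15 pairs with the same number and 0.022 over 39 with different numbers. Replicate libraries differed beyond counting noise. By the study they are independent biological replicates.

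Named genes were all 55 that the study names by ID, and, among genes without annotation called with no overlap between varieties, the 2 largest log2 FC in each direction over both nitrate levels. The rule also gives such genes under HN and LN apart, which are not printed because 0 IDs matched the gene name table. Members and lists were chosen with earlier results of these data known.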

Additional observations from a re-analysis of the deposited data

Results flagged for a closer look

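Values of the named genes were compared within each variety, and 13 of 109 groups of 6 libraries held a library farther from the others than Dixon's limit. For independent values from a single normal distribution, chance gives about 1 in 20. Each group pools HN and LN libraries, and the genes were chosen from these data, so that rate is no benchmark here. Of these 13 libraries, 6 were GP LN replicate 1 and 5 were GP LN replicate 3.

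GP LN replicate 3 was high for HORVU6Hr1G083050, the LKR/SDH gene, with 148 CPM against 5.37 to 17.0 CPM in the other GP libraries, and for HORVU1Hr1G057880, annotated as a release factor, with 207 CPM against 0.575 to 1.15. It was also high for the cytochrome P450 gene HORVU3Hr1G011820, with 22.0 CPM against 0.769 to 5.64, for the LHT1 gene HORVU7Hr1G074640, with 62.0 CPM against 14.3 to 27.1, and for HORVU3Hr1G097770, with 24.1 CPM against 6.41 to 12.7. None of these 5 genes was called between M5 and GP over both nitrate levels.

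GP LN replicate 1 was high for 4 genes that were called higher in M5. They are the transaminase gene HORVU3Hr1G032400 with 80.9 CPM against 3.51 to 27.3 in the other GP libraries, the reductase gene HORVU4Hr1G086020 with 43.4 CPM against 29.7 to 32.0, HORVU1Hr1G048670 with 20.2 CPM against 0 to 0.0513, and HORVU2Hr1G114870 with 18.6 CPM against 0. It was low for 2 genes called lower in M5, namely HORVU7Hr1G059130 with 66.8 CPM against 133.9 to 155.2 and the dehydrogenase gene HORVU3Hr1G000570 with 2.34 CPM against 5.79 to 7.21. In each of the 6 genes this library lay on the M5 side of the other GP libraries. The part of its M5 transcripts in these values was not tested gene by gene. Over the 874 genes called with a log2 FC of at least 2 in size without the GP replicate 1 libraries, it lay at a median of 60.8% of the way to M5 on the CPM scale.

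In M5, LN replicate 1 was high for the transaminase gene HORVU2Hr1G096380, with 2.67 CPM against 1.29 to 1.71, and HN replicate 3 was low for the dehydrogenase gene HORVU3Hr1G069300, with 17.0 CPM against 22.5 to 24.6.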

How the results depend on the processing

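Over both nitrate levels, the count of 2376 called genes stayed within 1.5 times under all alternatives, between 1666 and 2862. Without the replicate block it was 2699, with 1826 under HN, 919 under LN and 0 for the difference between levels. In a fit of the GP and M5 libraries alone with the replicate block it was 1812, out of 18559 tested genes. The HN count was 699 in a fit of the GP and M5 libraries alone with the replicate block, and 618 to 1637 with 1 library left out. It was 2086 with its 6 libraries alone and no replicate block, 1993 by the edgeR likelihood ratio test and 1955 by DESeq2. The LN count moved most, to 263 with its 6 libraries alone and no replicate block, 1285 without the GP replicate 1 libraries, 1355 by the edgeR likelihood ratio test, 1320 by DESeq2, and 382 to 1368 with 1 library left out. The likelihood ratio test without GP replicate 1, chosen after seeing the data, gave 1731 under LN and 2 for the difference between levels, for which DESeq2 gave 7. Genes counted in M5 alone (0) became 142 without GP replicate 1, 7 at a mean of at least 0.5 CPM, 5 with up to 10 reads allowed in GP, and 0 to 55 with 1 library left out. Genes counted in GP alone (140) became 50 at a mean of at least 5 CPM and 91 with 0 reads allowed in M5, by fewer genes meeting the rule. The causes of the other moves were not tested.

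The 59 named genes kept their direction, wherever called, and their side of the threshold in 1785 of 1825 values over both levels, 1780 of 1823 under HN and 1731 of 1823 under LN, and 0 calls turned. The number of reads limits the genes with few of them, since 3 reads allow up to 0.0305 CPM over the M5 libraries.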
